A study of Mus musculus with 12 samples.

Results

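The 34 genes described here encode machinery with which a phagocyte takes up a dying cell and handles the resulting phagosome. They were chosen by name, with earlier results of these data known, as engulfment signalling genes and genes of LC3-associated phagocytosis and autophagy, and all 34 symbols stood in both deposited count tables. Those tables list 55367 symbols for cultures with apoptotic cells and 54957 for cultures without them, of which 54582 are shared. Primary bone marrow-derived macrophages, grown from mouse tibial marrow, were profiled by polyA RNA sequencing in 4 groups of 3 libraries. KO + AC libraries came from macrophages labelled Kif13b-deficient and co-cultured for 90 minutes with Jurkat cells (a human T cell line) that had been made apoptotic, at 1 macrophage to 5 apoptotic cells. WT + AC libraries came from wild-type macrophages co-cultured in the same way. KO libraries came from macrophages labelled Kif13b-deficient without apoptotic cells, and WT libraries from wild-type macrophages without them. The genotype is given both as a null (Kif13b-/-) and as a knock down, and all mice carry the age label 6 to 8 weeks. The serum labels of the cultures without apoptotic cells read 12, 13 and 14% in KO and 10, 10 and 11% in WT, and the part of serum in any genotype difference was not tested. Whether replicate libraries derive from different mice or dishes is not stated in the labels, and the p-values below therefore reflect library-to-library spread, which may be technical.

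As background, receptors for exposed phosphatidylserine signal through CRK adaptors and ELMO-DOCK exchange factors to the GTPase Rac, which drives the actin cup that closes around the apoptotic cell. In LC3-associated phagocytosis, a Beclin-containing lipid kinase complex with UVRAG and Rubicon marks the sealed phagosome, and the ATG5, ATG12, ATG16L1, ATG7 and ATG3 proteins then attach LC3 and GABARAP proteins to its single membrane. Canonical autophagy shares that conjugation system but also needs the ULK1 initiation complex. KIF13B is a kinesin motor, and the study asked how its loss changes macrophages that take up apoptotic cells.

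Library totals were 17000976 to 17285594 counts with apoptotic cells and 18256622 to 18770757 without, and the 34 genes took 0.49 to 0.51% and 0.36 to 0.39% of them. All 10 macrophage markers had counts in every library. Kif13b itself had 1697, 1697 and 1721 counts in the KO + AC libraries, against 1600, 1561 and 1634 in WT + AC, and was higher by 0.13 on the log2 scale (edgeR adjusted p = 0.0261), which goes against the label; those libraries are therefore called the libraries labelled KO + AC, and their contrast with KO the pair labelled KO. Without apoptotic cells Kif13b had 281, 345 and 424 counts in KO, against 599, 546 and 535 in WT. It was lower, in the direction of the label, at 0.67 of the WT level (log2 fold change -0.59, edgeR adjusted p = 0.0087). Kif13b has 13017 bp of exon, and the longest eighth of genes by exon length had a median of -0.23 in that comparison. The part of length in the Kif13b difference was not tested. KO library 3 stood nearer to the WT libraries than the other KO libraries did: over all genes its chi-square per degree of freedom was 8.42, 20.4 and 30.6 against WT libraries 1, 2 and 3, where KO library 1 gave 33.8 to 56.4 and KO library 2 gave 49.8 to 91.3. Within KO it was 22.7 and 35.5 between library 3 and libraries 1 and 2, and 22.0 between libraries 1 and 2. It was also the KO library closest to the WT mean for 21 of the 34 genes. Genotype results of the 34 genes without apoptotic cells are therefore also given below from further fits where the call changes. These leave out KO libraries 1 and 2 or KO library 3. Because library 3 was singled out by its nearness to WT in these same data, leaving it out tends to widen genotype differences. Leaving out libraries 1 and 2 tends to narrow them. Calls gained or lost in these fits follow in part from that choice and are no separate support.

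Levels differed widely between the 34 genes (the plot of levels by gene and library). Levels per kilobase use the length of all annotated exons of a gene, and the order between genes depends on that choice. Per kilobase of exon, Gabarap, a member of the ubiquitin-like ATG8 family that decorates membranes, was the highest of the 34 without apoptotic cells, at 599 CPM (counts per 1000000 in a library) per kb in KO and 487 in WT. Sqstm1, which encodes the autophagy cargo receptor p62, was second there at 191 in KO and 166 in WT. With apoptotic cells that order turned over. Sqstm1 led at 571 CPM per kb in the libraries labelled KO + AC and 513 in WT + AC, and Gabarap followed at 220 and 201. Rac1, the GTPase at the centre of engulfment signalling, stood at 60.8 CPM per kb in the libraries labelled KO + AC and 58.1 in WT + AC, and at 90.3 in KO and 99.2 in WT. Gulp1, an engulfment adaptor, was the lowest of the 34 in all groups, with 11, 9 and 17 counts in the libraries labelled KO + AC, 14, 11 and 10 in WT + AC, 33, 29 and 59 in KO, and 40, 69 and 58 in WT.

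**Figure D1:**
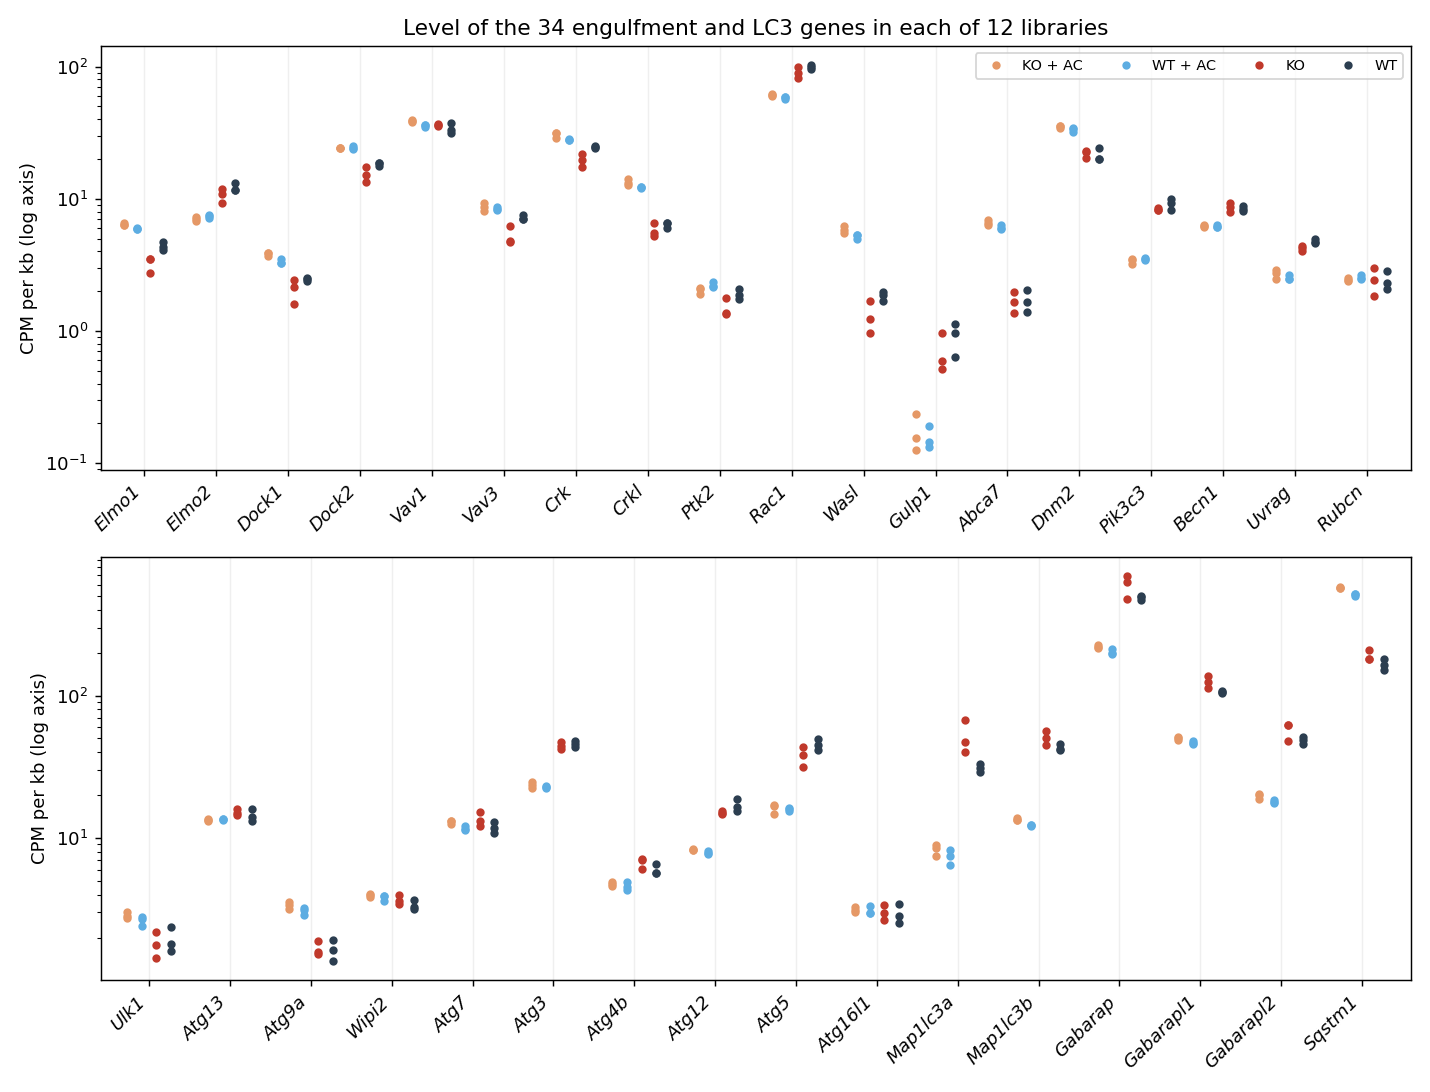
Level of each of the 34 genes per library, as CPM per kb of exon on a log axis, in the order KO + AC, WT + AC, KO and WT; genes are grouped by role. Gabarap and Sqstm1 stand at the top in all groups, and Gulp1 at the bottom.

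Some reads cannot be assigned to 1 gene with certainty, because the strand setting of the counting is not given in the sources used here. Over all annotated exons, 11 of the 34 genes overlap another gene: Becn1 over 3104 bp (Cntd1), Rac1 over 2309 bp (Daglb), Atg9a over 1878 bp, Uvrag over 1589 bp, Sqstm1 over 580 bp (Mrnip), Gabarapl1 over 570 bp, Dock2 over 460 bp, Elmo1 over 403 bp of its 12580 bp, Dnm2 over 207 bp, Rubcn over 171 bp and Map1lc3b over 58 bp. Of the 75-base windows in each gene's longest transcript, 54.7% were shared with another gene for Rac1, 43.1% for Becn1, 40.7% for Atg9a, 19.6% for Sqstm1, 17.5% for Gabarapl1, 13.3% for Gabarapl2 and 5.93% for Map1lc3b. Uvrag shared 1.46% and Ptk2 1.35% of windows, and the longest transcripts of the other 25 genes shared none. The values of the genes with an overlap or shared windows are uncertain for that reason.

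Without apoptotic cells, KO macrophages had more Map1lc3a RNA and less Elmo1 and Vav3 RNA than WT macrophages. Map1lc3a, which encodes LC3A and lies on chromosome 2 (GRCm38, 155276297 to 155278073, plus strand), was counted 821, 1184 and 772 times in KO, against 649, 603 and 550 times in WT. Every KO library was above every WT library, with KO library 2 the highest. The means were 52.3 ± 14.6 CPM in KO and 31.5 ± 1.99 CPM in WT (SD, n = 3 each), with a difference on the log2 scale of 0.73 (SE 0.15, edgeR quasi-likelihood test with Benjamini-Hochberg adjustment over 12640 genes, adjusted p = 0.00501). Map1lc3a was the 1 member called higher of 34, where 7.94% of all genes tested were called higher. With a correction for exon length and GC content its log2 fold change was 0.29 (edgeR adjusted p = 0.0689), and without KO libraries 1 and 2 it was 0.36 (edgeR adjusted p = 0.333, with the lone KO library assumed to vary like the WT group).

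Both genes called lower act upstream of Rac. Elmo1, which pairs with DOCK proteins to activate Rac and lies on chromosome 13 (20090596 to 20608353, plus strand), was counted 648, 520 and 722 times in KO, against 866, 883 and 952 times in WT. Vav3, a guanine nucleotide exchange factor gene on chromosome 3 (109340653 to 109685698, plus strand), was counted 423, 423 and 608 times in KO, against 701, 694 and 729 times in WT. For both genes every KO library was below every WT library, and KO library 3 was the highest KO value. Elmo1 averaged 35.3 ± 4.46 CPM in KO and 47.3 ± 3.27 CPM in WT (SD, n = 3 each; log2 fold change -0.42, edgeR adjusted p = 0.0306). Vav3 averaged 27.006 ± 4.14 CPM in KO and 37.2 ± 1.57 CPM in WT (SD, n = 3 each; log2 fold change -0.46, edgeR adjusted p = 0.0236). These 2 lower calls of 34 stand beside 8.24% of all genes called lower. The length and GC correction ended the call for Elmo1 (-0.24, edgeR adjusted p = 0.183) but not for Vav3 (-0.34, edgeR adjusted p = 0.0342), and leaving out KO library 1, KO library 2, WT library 2 or WT library 3 ended both, at values of -0.48 to -0.32 for Elmo1 and -0.47 to -0.39 for Vav3. Without KO libraries 1 and 2 Elmo1 stood at -0.32 (edgeR adjusted p = 0.382) and Vav3 at -0.22 (edgeR adjusted p = 0.545).

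The other members of Rac signalling mostly had lower values in KO without passing the test. Wasl (chromosome 6, 24613805 to 24665009, minus strand), which encodes the Arp2/3 activator N-WASP, had 88, 114 and 169 counts in KO and 172, 198 and 187 in WT (log2 fold change -0.50, edgeR adjusted p = 0.053). Its groups nearly met, at 8.83 CPM in KO library 3 and 8.84 CPM in WT library 1. Crk (chromosome 11, 75679259 to 75706908, plus strand), an adaptor gene upstream of DOCK proteins, had 1377, 1227 and 1695 counts in KO and 1903, 1932 and 1892 in WT (log2 fold change -0.32, edgeR adjusted p = 0.0665), without overlap. Ptk2, the focal adhesion kinase gene (-0.34), and Dock2, the main DOCK gene of blood cells (-0.26), also had KO libraries below WT libraries but did not pass. Over the 11 Rac signalling genes the median log2 fold change was -0.26. The 6 genes of the ATG8 family with Sqstm1 all had positive log2 fold changes, between 0.20 and 0.73, and only Map1lc3a passed the test. None of the 4 genes of the lipid kinase complex, the 6 of the conjugation system, the 4 of initiation or the 3 other uptake genes passed (lowest edgeR adjusted p = 0.155, for a conjugation gene). At an unadjusted p under 0.05 edgeR gave 2 higher and 6 lower of the 34, and DESeq2 called 1 higher and 3 lower after adjustment. Over all 34 genes the median log2 fold change was -0.036, against 0.024 over all genes tested, and KO and WT libraries did not overlap for 9 of 34 genes, against 33.6% of all genes. Without KO library 3 the count of calls was 4 higher and 9 lower, where 4166 of all 12868 genes tested were called. Gabarap (0.40), Gabarapl1 (0.27) and Gabarapl2 (0.31) joined Map1lc3a. Wasl (-0.77), Gulp1 (-0.74), Ptk2 (-0.52), Crk (-0.45), Dock1 (-0.42), Dock2 (-0.39) and Elmo2 (-0.32) joined Elmo1 and Vav3. With so many genes called, these counts are no result about the members. Without KO libraries 1 and 2 no member was called by edgeR, and 2 were under an unadjusted p of 0.05.

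**Figure D2:**
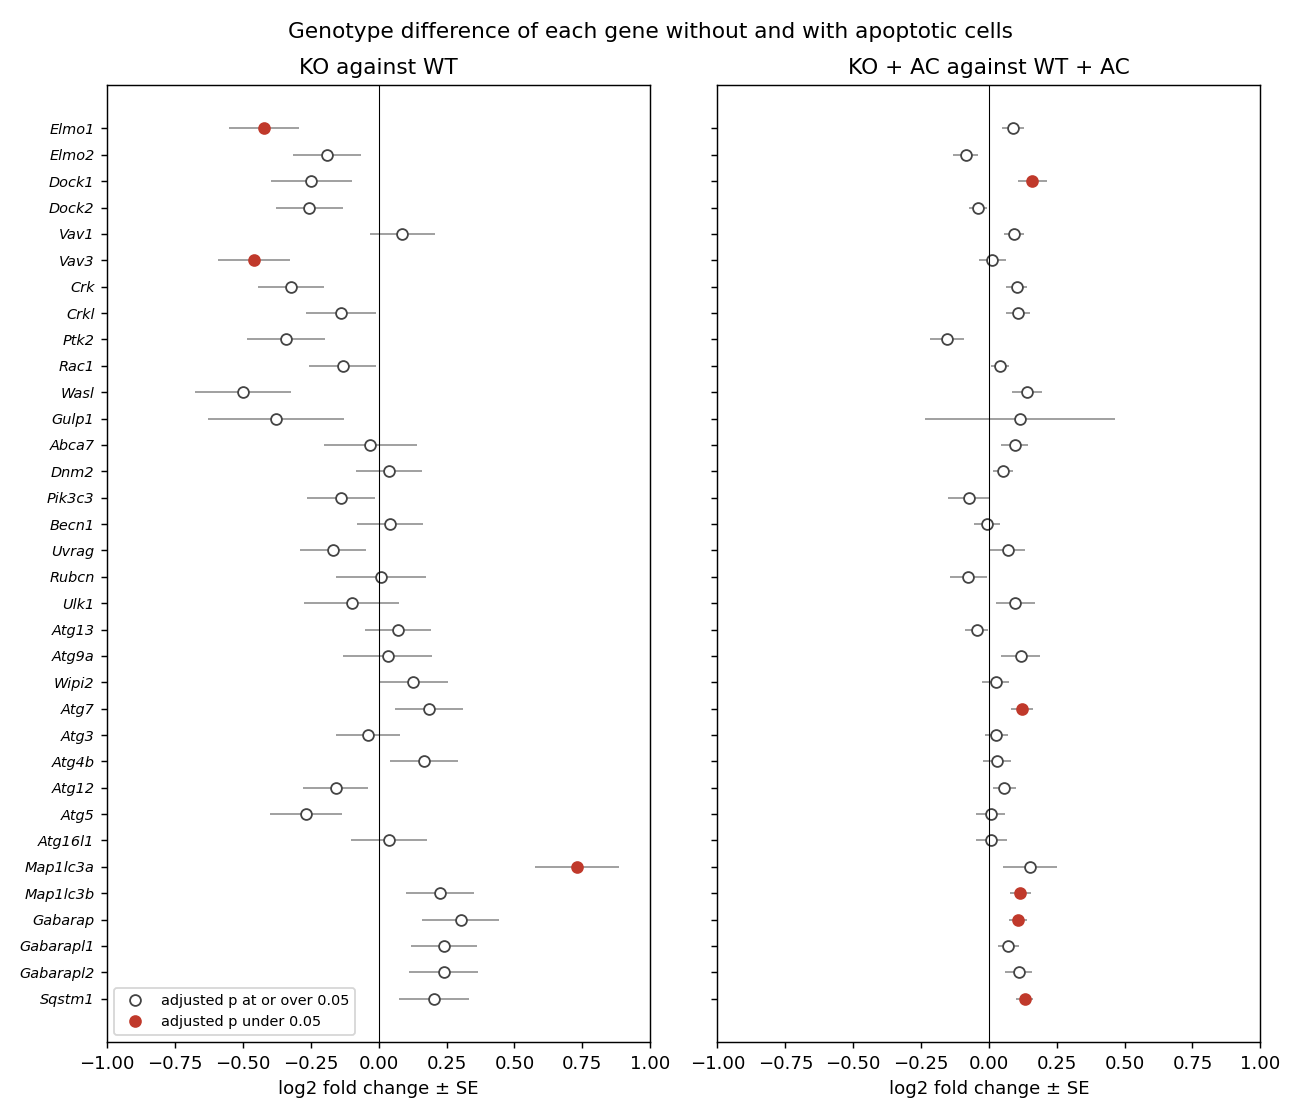
Log2 fold change of each of the 34 genes between genotypes, KO against WT on the left and KO + AC against WT + AC on the right, with bars for 1 standard error and filled points for genes past an adjusted p of 0.05. Without apoptotic cells Map1lc3a stands highest at 0.73 and Wasl lowest at -0.50; with apoptotic cells the values lie closer to 0.

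Over protein-coding genes, the genotype differences moved with exon length. The median KO against WT log2 fold change was 0.28 in the shortest eighth by exon length and -0.23 in the longest eighth. The members followed that order only in part. Their medians were 0.31 in the shortest eighth and -0.25 in the longest. In class 2 and class 7 from the shortest they were -0.0096 and 0.048, against 0.18 and -0.12 over coding genes. Map1lc3a is the shortest member, at 1181 bp of exon, and Elmo1 the longest, at 12580 bp. The part of length in the calls beyond the corrected values above was not tested. Fibroblast and stromal markers also moved with genotype: all 12 had counts in every library, 8 of 12 tested were called higher in KO, and their summed level was 1026 to 1327 CPM in KO and 677 to 835 CPM in WT. Their part in the members' differences was not tested, and in bulk RNA fewer cells of a type and less RNA per cell cannot be told apart.

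Among pathway genes outside the 34, calls in both directions were made, to be read against the 7.94% of all genes called higher and 8.24% called lower. Of 42 other engulfment genes tested, 1 was called higher and 5 lower in KO. Src, a tyrosine kinase downstream of engulfment receptors, was the higher one (18.5 CPM in KO and 10.8 CPM in WT, log2 fold change 0.78), and the lower ones included Actr2 of the Arp2/3 complex (-0.63), the exchange factor Dock8 (-0.46) and the WAVE complex subunit Cyfip1 (-0.38). Of 36 other autophagy genes tested, 1 was higher, the SNARE gene Vamp8 (0.45), and 2 were lower, the initiation scaffold Rb1cc1 (-0.62) and the lysosomal transcription factor Mitf (-0.43). Of 6 genes of the phagocyte NADPH oxidase, which makes the oxidants that LC3-associated phagocytosis needs, the membrane subunits moved in opposite directions: Cyba was higher (0.74) and Cybb lower (-0.43). The KO libraries spread widely for Cyba, at 3338 ± 1194 CPM against 1997 ± 40.1 CPM in WT (SD, n = 3 each). Vamp8 stood at 468 ± 120 CPM in KO and 342 ± 12.7 CPM in WT. Values of these pathway genes are given for the main fit only.

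With apoptotic cells, 5 of the 34 genes were called higher in the libraries labelled KO + AC than in WT + AC, and none lower, where 6.58% of all genes tested were called higher and 4.75% lower. The differences were small. Sqstm1 (chromosome 11, 50199366 to 50210827, minus strand) was counted 36597, 37071 and 36561 times in the libraries labelled KO + AC, against 34254, 33927 and 34893 in WT + AC. Its groups did not overlap, and the means were 2172.7 ± 23.4 CPM and 1983.8 ± 41.8 CPM (SD, n = 3 each), with a difference on the log2 scale of 0.13 (SE 0.032, edgeR adjusted p = 0.00356). Gabarap was counted 7921, 7779 and 7656 times in the libraries labelled KO + AC and 7663, 7209 and 7330 in WT + AC. Those counts overlap by their outermost values and the CPM of the libraries do not, with means of 460 ± 10.5 CPM and 427 ± 19.2 CPM (log2 fold change 0.11, edgeR adjusted p = 0.0333). Map1lc3b, which encodes LC3B, averaged 115 ± 3.05 CPM in the libraries labelled KO + AC and 107 ± 1.09 CPM in WT + AC (log2 fold change 0.12, edgeR adjusted p = 0.0415).

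The other 2 genes called higher came from conjugation and Rac signalling. Atg7, the E1-like enzyme that activates ATG8 proteins and ATG12, was counted 1748, 1754 and 1688 times in the libraries labelled KO + AC and 1675, 1598 and 1608 in WT + AC (102 ± 2.71 CPM and 94.0 ± 3.64 CPM, log2 fold change 0.12, edgeR adjusted p = 0.0381). Dock1, the ELMO partner also called DOCK180, was counted 689, 694 and 657 times in the libraries labelled KO + AC and 604, 615 and 652 in WT + AC (40.2 ± 1.40 CPM and 36.0 ± 1.35 CPM, log2 fold change 0.16, edgeR adjusted p = 0.0443). For both genes the lowest count labelled KO + AC lay above the highest WT + AC count. Of all 34 genes, 27 had a positive log2 fold change, with a median of 0.070 against -0.020 over all genes tested, and groups did not overlap for 14 of 34, against 26.4% of all genes. DESeq2 called only Sqstm1 and Gabarap higher and none lower; at an unadjusted p under 0.05 edgeR gave 11 higher and 1 lower, Ptk2 (-0.16). The 4 lipid kinase complex genes lay between -0.076 for Rubcn and 0.069 for Uvrag, and the conjugation genes other than Atg7 between 0.0064 for Atg5 and 0.056 for Atg12. The genes called lower without apoptotic cells stood at 0.088 (Elmo1, edgeR adjusted p = 0.168) and 0.013 (Vav3, edgeR adjusted p = 0.913) here. Only the Sqstm1 call held without each of the 6 libraries in turn. When the spread was estimated over all 12 libraries, no member was called, at an unadjusted p under 0.05 either.

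Other pathway genes shared that pattern of small differences. Of 46 other engulfment genes, 10 were called higher and 4 lower for the label KO + AC, with the kinase genes Syk (0.18) and Lyn (0.18) among the higher and Src (-0.24) among the lower. Of 36 other autophagy genes, 9 were higher, among them the cargo receptor gene Optn (0.24) and Mitf (0.23). Of the oxidase genes, Cybb (0.25) and Cyba (0.13) were among the higher. Fibroblast and stromal markers went the other way, with 6 of 11 called lower and summed levels of 274 to 295 CPM in the libraries labelled KO + AC and 396 to 435 CPM in WT + AC. Summed macrophage markers were 15944 to 16246 CPM in the libraries labelled KO + AC and 13229 to 14031 CPM in WT + AC, and the part of either in the members' differences was not tested.

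The larger contrast was between cultures with and without apoptotic cells. In that contrast the condition and the deposited table are the same split, so a response to apoptotic cells cannot be told apart from a difference between the tables. The tables also differ in more than the members: 31787 to 32801 symbols had counts with apoptotic cells and 18335 to 18540 without. The human Jurkat cells were in the cultures, and 6 of 9 T cell genes tested were called higher and 2 lower in each genotype, with Lck at 22.0 CPM in the libraries labelled KO + AC and 26.1 in WT + AC, against 1.01 in KO and 0.75 in WT. Zap70 stood at 21.7 CPM in the libraries labelled KO + AC and 21.3 in WT + AC, against 0.112 in KO and 0.102 in WT. Over all 14 T cell markers the summed level was 74.9 to 81.0 CPM in the libraries labelled KO + AC, 80.2 to 89.7 in WT + AC, 61.0 to 73.3 in KO and 54.4 to 55.1 in WT, and Ptcra and Rag1 were at 0 in all libraries without apoptotic cells. Lat (51.4 CPM in KO and 33.5 in WT) and Cd28 (13.9 and 19.4) held most of the sum without apoptotic cells. Both were lower with apoptotic cells. Lat stood at 14.4 CPM in the libraries labelled KO + AC and 17.2 in WT + AC, and Cd28 at 4.26 and 4.91. The part of Jurkat RNA in the members' counts was not tested. Summed macrophage markers were 15944 to 16246 CPM in the libraries labelled KO + AC and 13229 to 14031 in WT + AC, against 31124 to 38822 in KO and 30611 to 33177 in WT. Lyz2 held most of these sums, with means of 10736 CPM in the libraries labelled KO + AC and 28671 in KO. Its means were 8955.5 CPM in WT + AC and 25121 in WT. Of the 10 macrophage markers, 4 were called higher and 5 lower in the pair labelled KO, and 3 higher and 6 lower in the WT pair. Summed fibroblast and stromal markers were 274 to 295 CPM in the libraries labelled KO + AC and 396 to 435 in WT + AC, against 1026 to 1327 in KO and 677 to 835 in WT, with 10 of 12 and 9 of 12 called lower in the 2 pairs. Their part in the changes below was not tested.

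Of the 34 genes, 13 were called higher and 15 lower when the libraries labelled KO + AC were set against KO, where 49.6% of all genes were called higher and 36.7% lower. In WT + AC against WT, 12 were called higher and 15 lower, where 48.3% of all genes were called higher and 36.7% lower. With most genes of the tables called, these shares are no result about the members. The same 12 higher and 15 lower genes were called in both genotypes, Crk was called in the pair labelled KO alone (0.63, against 0.18 in the WT pair), no gene was called in opposite directions, and Rubcn, Atg7, Atg16l1, Vav1, Wipi2 and Atg13 were called in neither. The median over the 34 genes was -0.019 in the pair labelled KO and 0.023 in the WT pair, against 0.320 and 0.249 over all genes tested. Groups did not overlap for 30 and 28 of 34, against 86.7% and 86.6% of all genes.

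All 5 genes of the ATG8 family were called lower. Summed macrophage and stromal markers were lower in these libraries too, but Lyz2 held most of the macrophage sum. Of the 10 macrophage markers, 4 were called higher in the pair labelled KO and 3 in the WT pair. Map1lc3a stood at 10.5, 10.0 and 8.89 CPM in the libraries labelled KO + AC, against 55.7, 79.2 and 47.1 CPM in KO, and at 8.79, 7.61 and 9.67 CPM in WT + AC, against 38.9, 36.9 and 34.1 CPM in WT. Its log2 fold changes were -2.63 in the pair labelled KO and -2.07 in the WT pair. Map1lc3b fell by 1.89 and 1.81 on the log2 scale, Gabarapl2 by 1.54 and 1.44, Gabarap by 1.44 and 1.27, and Gabarapl1 by 1.33 and 1.19, in the same order of pairs. Summed over the 5 family members, the level was 315, 313 and 307 CPM per kb in the libraries labelled KO + AC, against 927, 998 and 725 in KO. In the WT pair it was 297, 277 and 282 CPM per kb in WT + AC, against 699, 720 and 729 in WT. Every library with apoptotic cells was below every library without them.

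Within the family the make-up moved less than the sum. The shares divide by the length of all annotated exons, 7517 bp for Map1lc3b and 1844 bp for Gabarap, and depend on that choice. Before that division Map1lc3b averaged 324 CPM and Gabarap 898 CPM in WT. Gabarap held 70.6% of the summed level in the libraries labelled KO + AC, 70.4% in WT + AC, 67.6% in KO and 68.0% in WT. Map1lc3a held 2.66, 2.58, 5.77 and 4.34% in that order of groups, and Map1lc3b held 4.35, 4.31, 5.75 and 6.03%. On average the LC3 genes took smaller shares with apoptotic cells, and Gabarap and Gabarapl1 (16.0, 16.4, 14.3 and 14.8%) larger ones.

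**Figure D3:**
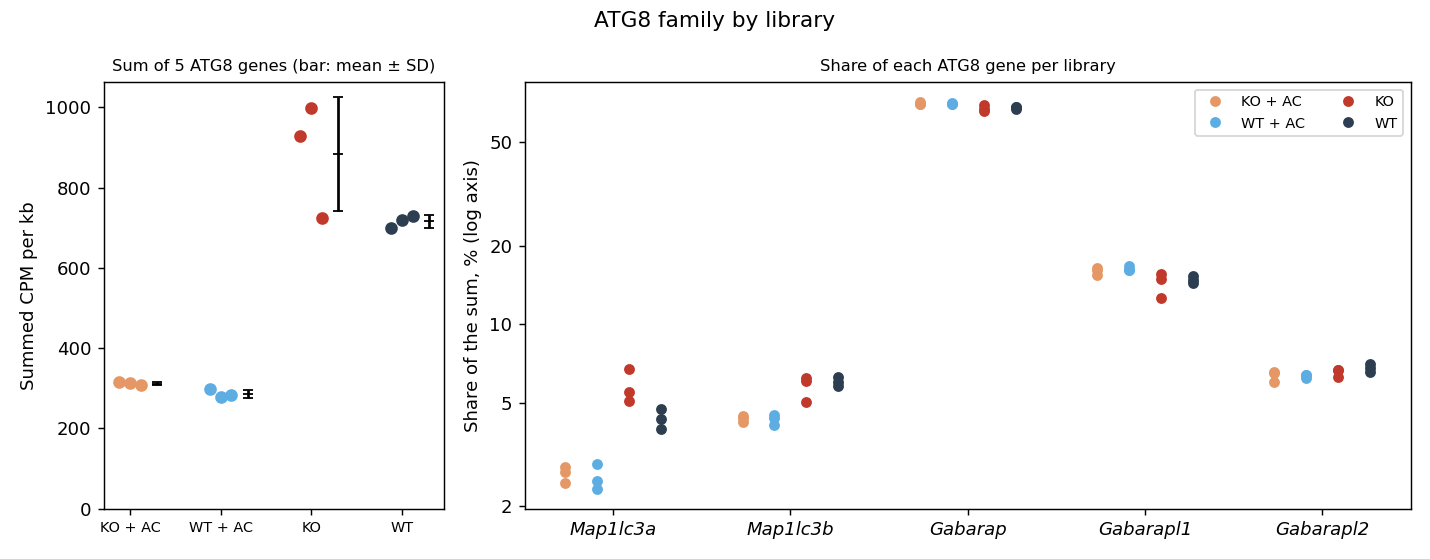
Left, the summed level of 5 ATG8 genes per library in CPM per kb, with the mean and SD of each group of 3; right, the share of each gene in that sum on a log axis. The sum is 277 to 315 in the 6 libraries with apoptotic cells and 699 to 998 in the 6 without.

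Sqstm1, whose protein binds the ATG8 proteins, moved opposite to them. It stood at 1921, 1930 and 1901 CPM in the libraries labelled KO + AC, against 610, 702 and 610 CPM in KO, and at 1740, 1687 and 1740 CPM in WT + AC, against 611, 553 and 507 CPM in WT. The log2 fold changes were 1.58 and 1.63, and every library with apoptotic cells was above every library without. The ratio of Sqstm1 to Map1lc3b CPM was 19.2, 18.5 and 18.8 in the libraries labelled KO + AC and 19.04, 18.1 and 18.7 in WT + AC. Without apoptotic cells it was 1.45, 1.86 and 1.80 in KO and 1.93, 1.76 and 1.48 in WT, so that the ratio separated the conditions and not the genotypes.

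The conjugation enzymes fell or did not pass, and none rose. Atg5 fell by 1.22 in the pair labelled KO and 1.52 in the WT pair on the log2 scale, Atg3, the E2-like enzyme for ATG8 proteins, by 0.91 and 1.00, Atg12 by 0.87 and 1.11, and the ATG8 protease gene Atg4b by 0.49 and 0.38. Atg7 and Atg16l1 did not pass in either pair. For coding genes with the length and GC correction, both were called lower in both pairs. Atg7 then stood at -0.61 and -0.66, and Atg16l1 at -0.79 and -0.60. In the lipid kinase complex, the catalytic subunit gene Pik3c3 fell by 1.30 and 1.39, Uvrag by 0.65 and 0.91, and Becn1 by 0.47 and 0.45. Rubcn, which encodes Rubicon and distinguishes the complex of LC3-associated phagocytosis, stood at 18.9, 17.9 and 18.3 CPM in the libraries labelled KO + AC and 13.8, 18.1 and 22.3 CPM in KO, with overlapping groups. It stood at 19.8, 18.6 and 18.7 CPM in WT + AC and 21.2, 15.5 and 17.2 CPM in WT, overlapping again. For coding genes with the correction, Rubcn was called lower in both pairs (-0.68 and -0.72). Among initiation genes, which canonical autophagy needs, Atg9a rose by 1.02 and 0.91 and Ulk1 by 0.67 and 0.45, while Atg13 (-0.18 and -0.089) and Wipi2 (0.11 and 0.18) did not pass.

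Of the 11 Rac signalling genes, 8 were called higher and 2 lower in the pair labelled KO, and 7 higher and 2 lower in the WT pair. Wasl stood at 38.4, 35.5 and 34.1 CPM in the libraries labelled KO + AC, against 5.97, 7.63 and 10.3 CPM in KO, and at 32.5, 30.8 and 33.0 CPM in WT + AC, against 10.3, 12.1 and 11.6 CPM in WT (log2 fold changes 2.17 and 1.501). Abca7, a lipid transporter linked to phagocytosis, rose by 1.99 and 1.83, and the adaptor gene Crkl by 1.21 and 0.94. Elmo1 rose by 0.98 and 0.44, Dock1 by 0.88 and 0.45, Vav3 by 0.72 and 0.23, Dock2 by 0.66 and 0.42, and Ptk2 by 0.44 and 0.23, while Vav1, the exchange factor of blood cells, did not pass (0.10 and 0.072). Dnm2, which encodes the membrane-severing GTPase dynamin, rose by 0.67 and 0.64. Against these, Gulp1 fell by 2.01 and 2.52, Elmo2 by 0.60 and 0.73, and Rac1 by 0.57 and 0.77. The ELMO genes moved in opposite directions, and their levels came closer. The uncorrected ratio of Elmo1 to Elmo2 CPM per kb was 0.911 in the libraries labelled KO + AC and 0.807 in WT + AC. It was 0.306 in KO and 0.361 in WT. For coding genes with the length and GC correction, both had negative values: -0.16 and -0.54 for Elmo1, and -1.14 and -1.37 for Elmo2. The ratio of Dock2 to Dock1 lay between 6.35 and 7.51 over the 4 group means. Crk to Crkl stood at 2.29 in the libraries labelled KO + AC and 2.28 in WT + AC, against 3.41 in KO and 3.87 in WT, and for both the ELMO and the CRK pair the libraries of the 2 conditions did not overlap.

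**Figure D4:**
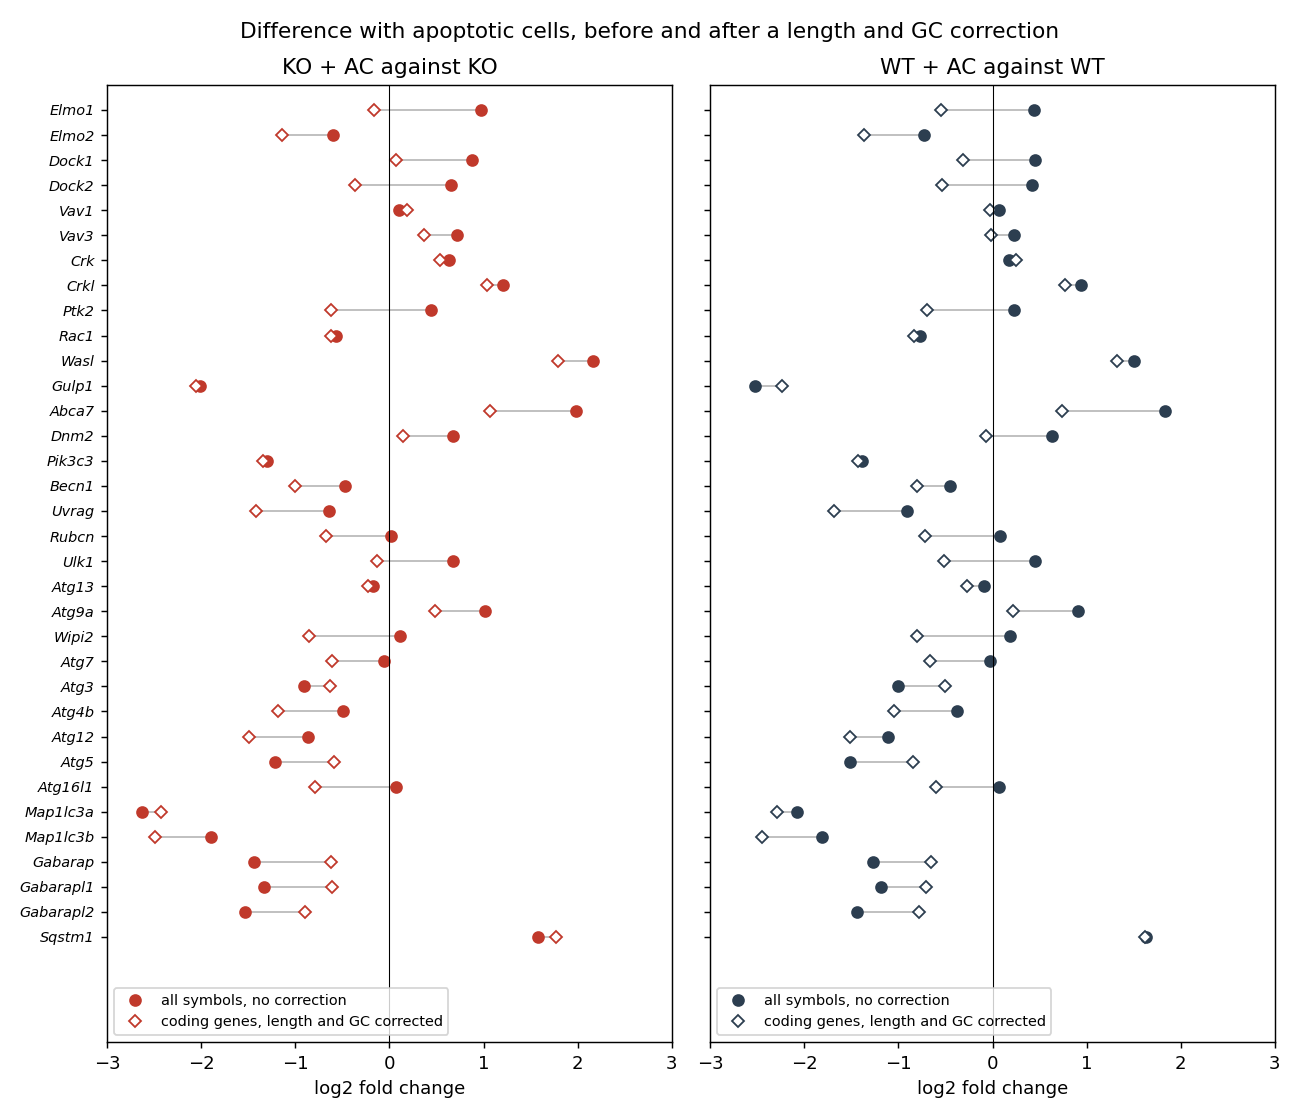
Log2 fold change of each of the 34 genes with against without apoptotic cells, KO + AC against KO on the left and WT + AC against WT on the right; filled circles use all symbols, open diamonds use coding genes after a correction for length and GC content. The ATG8 genes stay below 0 in both, while Elmo1, Dock2 and Ptk2 cross 0.

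Not all of these calls held under a correction for exon length and GC content. With it 8 members were higher and 23 lower in the pair labelled KO, and 5 higher and 26 lower in the WT pair. Over all 16810 genes tested, 14340 were called with the correction in the pair labelled KO and 14292 in the WT pair. Over protein-coding genes the median log2 fold change was -1.20 in the shortest eighth by exon length and 1.17 in the longest eighth in the pair labelled KO, and -0.99 and 0.92 in the WT pair. Over all symbols, which the main fit used, the shortest eighth went the other way. Its median was 4.32 in the pair labelled KO and 4.51 in the WT pair, with 0.98 and 0.74 in the longest eighth. The part of these short symbols in the scaling of the members was not tested. The 15 lower genes kept their call in every alternative in both genotypes: Map1lc3a, Map1lc3b, Gabarap, Gabarapl1, Gabarapl2, Atg3, Atg4b, Atg5, Atg12, Becn1, Pik3c3, Uvrag, Elmo2, Gulp1 and Rac1. Of the higher genes, Abca7, Atg9a, Crkl, Sqstm1 and Wasl did so. Elmo1, Dock1, Dock2, Vav3, Ptk2, Dnm2 and Ulk1 lost or turned their call in at least 1 genotype, as with Elmo1, which went to -0.16 in the pair labelled KO and -0.54 in the WT pair. Within coding genes and with the correction, Map1lc3b fell by 2.50 and 2.45, and Sqstm1 rose by 1.77 and 1.62.

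**Figure D5:**
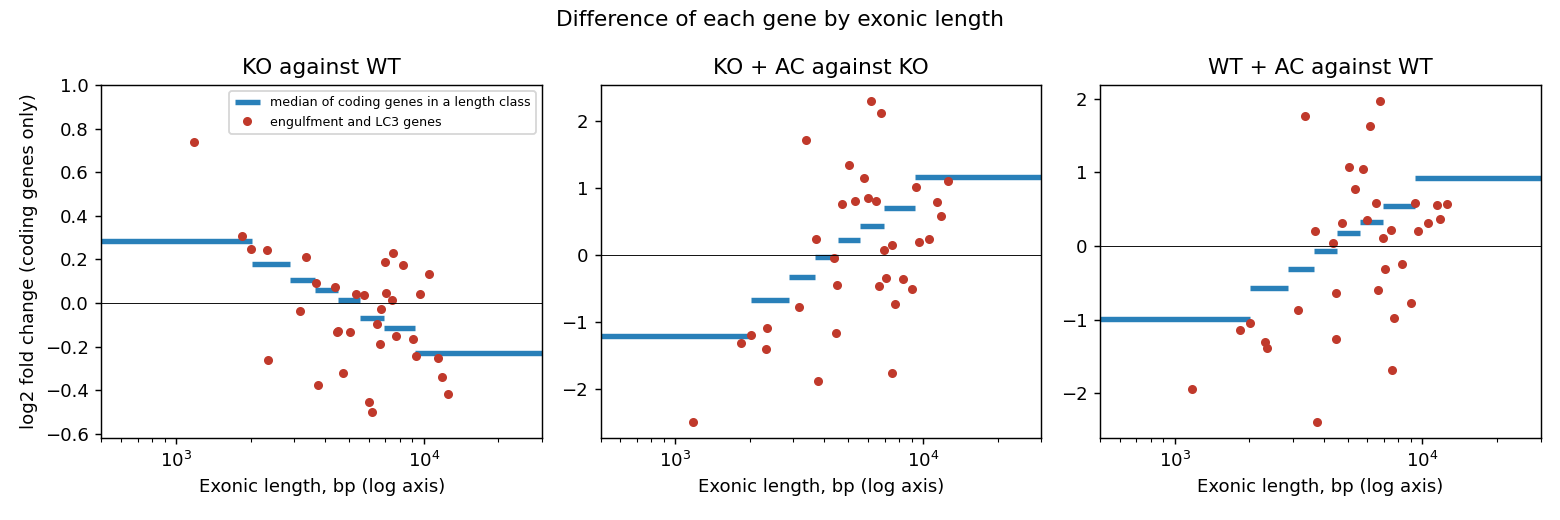
Log2 fold change against exon length on a log axis, for KO against WT, KO + AC against KO, and WT + AC against WT; bars are medians of all coding genes in 8 length classes and points are the 34 genes. The medians run from 0.28 to -0.23 without apoptotic cells, and from -1.20 to 1.17 and from -0.99 to 0.92 across the condition.

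Promoter windows are shown for 3 members that the apoptotic cell contrast separates: Atg3 and Atg5, which fell, and Sqstm1, which rose. RefSeq (GRCm38.p6) gave windows from 250 bases before to 50 after the start for 27 of the 34 genes. The E-box CACGTG, which reads the same on both strands and is bound by lysosomal gene regulators of the TFEB family, was found in the windows of Atg3, Atg5, Atg7 and Rubcn. It was in 4 of 33 windows of the members and in 7.15% of all 32851 promoter windows. Atg7 and Rubcn were called in neither pair of the apoptotic cell contrast. Other genes called lower there had no E-box in their windows: Map1lc3b, Gabarap, Gabarapl1, Gabarapl2, Atg4b, Uvrag, Elmo2 and Gulp1. The antioxidant response core TGACNNNGC, searched on both strands, was found for Atg13, Dock1, Map1lc3b and Vav3 (12.4% of all windows), and the AP-1 element TGANTCA, which can share bases with it, for Vav3 (7.81% of all windows). The 250 bases before each start are given 5′ to 3′ with E-box letters in capitals: Atg3 at chr16:45158579-45158828 (plus strand, 2 matches), Atg5 at chr10:44268089-44268338 (plus strand, 1 match) and Sqstm1 at chr11:50210821-50211070 (minus strand, no match). A match describes letters in the window, and no match says only that these letters are not in it.
Atg3: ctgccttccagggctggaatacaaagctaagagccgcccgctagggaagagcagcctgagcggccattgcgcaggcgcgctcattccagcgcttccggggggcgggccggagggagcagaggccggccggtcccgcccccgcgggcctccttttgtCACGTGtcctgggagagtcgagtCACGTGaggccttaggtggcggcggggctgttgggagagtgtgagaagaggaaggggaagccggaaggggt
Atg5: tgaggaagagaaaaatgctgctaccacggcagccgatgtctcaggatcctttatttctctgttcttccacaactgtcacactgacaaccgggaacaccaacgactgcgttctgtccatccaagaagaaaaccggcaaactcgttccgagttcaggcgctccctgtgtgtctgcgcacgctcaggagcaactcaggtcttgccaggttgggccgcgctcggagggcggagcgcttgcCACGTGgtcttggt
Sqstm1: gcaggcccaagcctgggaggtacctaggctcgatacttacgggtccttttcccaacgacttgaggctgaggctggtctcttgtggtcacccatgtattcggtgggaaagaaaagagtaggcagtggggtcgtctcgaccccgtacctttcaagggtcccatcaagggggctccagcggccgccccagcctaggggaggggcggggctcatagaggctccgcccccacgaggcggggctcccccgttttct

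Other pathway genes moved in both directions across the condition. Of 45 other engulfment genes, 26 were called higher and 16 lower in the pair labelled KO, and 23 and 17 in the WT pair, with Syk at 2.28 and 2.13 and the focal adhesion adaptor gene Pxn at 1.89 and 1.78. Of 36 other autophagy genes, 13 were higher and 21 lower in the pair labelled KO, and 9 and 22 in the WT pair. Vamp8 was at -2.26 and -1.96 and Tfeb, the lysosomal transcription factor, at -1.77 and -1.40. Of 6 oxidase genes, 2 were higher and 4 lower in each pair: Cybb (2.08 and 1.37) and Ncf1 (1.34 and 1.25) were higher, and Rac2 (-1.18 and -1.03) was among the lower.

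The difference between genotypes in the apoptotic cell contrast was tested as an interaction. It was called for 4 of the 34 genes, all of Rac signalling and all more positive in the pair labelled KO, and for none in the other direction, where 7.55% of all genes tested were called higher and 5.13% lower. The values were 0.54 for Elmo1 (edgeR adjusted p = 0.00775), 0.45 for Crk (edgeR adjusted p = 0.0151), 0.66 for Wasl (edgeR adjusted p = 0.0152) and 0.50 for Vav3 (edgeR adjusted p = 0.0185). In each of the 4 genes the KO libraries lay below the WT libraries without apoptotic cells, with nearly touching values for Wasl. DESeq2 called the same 4 genes higher and none lower, and at an unadjusted p under 0.05 edgeR gave 8 higher and 1 lower, Map1lc3a (-0.55, edgeR adjusted p = 0.0842). The median over the 34 genes was 0.101, against -0.034 over all genes tested. Elmo1 was called in all 21 alternatives, from 0.38 to 0.59. Without KO library 3, 4330 of all 17416 genes tested were called. Among the members, Dock1 (0.56), Crkl (0.36) and Dock2 (0.34) were then also called higher, and Map1lc3a (-0.71) and Gabarap (-0.31) lower. Without KO libraries 1 and 2, the other 3 were not called: Crk stood at 0.29 (edgeR adjusted p = 0.088), Vav3 at 0.25 (edgeR adjusted p = 0.281) and Wasl at 0.29 (edgeR adjusted p = 0.371).

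Kif13b had an interaction of 0.74 (edgeR adjusted p = 0.000815). Among pathway genes outside the 34, 9 other engulfment genes were called higher and 2 lower in the interaction, with Actr2 at 0.72 and Cyfip1 at 0.50 among the higher, and Src (-0.996) and the CAS scaffold gene Bcar1 (-0.82) lower. Of other autophagy genes 4 were higher, Mitf (0.69), Rb1cc1 (0.72), Vmp1 (0.38) and Tax1bp1 (0.45), and of oxidase genes Cybb (0.71) was higher. Fibroblast and stromal markers were called lower in 9 of 12, and their part in the members' interaction was not tested.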

How the data were processed

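PolyA RNA of 12 macrophage libraries was sequenced and the authors deposited whole-number read counts per gene symbol, in 1 table for the 6 libraries with apoptotic cells and 1 for the 6 without. Per the submitters' processing notes, fastp, HISAT2 2.0.5, DESeq2 1.20.0 and mm10 were used; which counting tool, gene annotation and strandedness were chosen is not given in the sources used here. Column names matched the samples' descriptions, and every column was used.

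Symbols were kept by edgeR's filterByExpr, scaled by TMM and tested with the edgeR 4.0.16 quasi-likelihood test in R 4.3.3 (two-sided, Benjamini-Hochberg adjustment over all genes tested, called under 0.05). Each genotype comparison was fitted within its own table of 6 libraries (12640 symbols without and 16467 with apoptotic cells). The apoptotic cell contrasts and the interaction came from 1 fit of 12 libraries over 16810 shared symbols. Genotype values are CPM within a table, and condition values are CPM over all 12 libraries. Exon lengths came from GRCm38, the build named mm10. No 2 libraries of a group agreed within sampling noise: the chi-square per degree of freedom was at least 1.40. The common biological coefficient of variation stood at 0.117 in KO and WT cultures and at 0.0294 in the co-cultures. The script was tested on simulated data with known changes.

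Alternatives were DESeq2 1.42.0, DESeq2 size factors, no filter on low counts, limma 3.58.1 voom weights, a length and GC correction, other sample sets, the replicate block and leaving out libraries; fits of protein-coding genes only were chosen after seeing the data. The members and all gene lists were chosen with earlier results of these data known. Besides the 34 members, genes are named by rule: Kif13b, up to 4 called genes with the smallest p per pathway list and comparison, and cell type markers beside a result. Some genes of these lists are not reported here.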

Additional observations from a re-analysis of the deposited data

Results flagged for a closer look

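The difference between genotypes in the apoptotic cell contrast was itself past the test for 4 Rac signalling genes: 0.54 on the log2 scale for Elmo1, 0.45 for Crk, 0.66 for Wasl and 0.50 for Vav3 (edgeR quasi-likelihood interaction, adjusted p = 0.00775, 0.0151, 0.0152 and 0.0185, higher in the pair labelled KO). In that pair the libraries labelled KO + AC had more Kif13b than WT + AC (0.13 on the log2 scale, edgeR adjusted p = 0.0261), against their label. With 3 libraries a group, no single library could be marked as standing apart by a range test.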

How the results depend on the processing

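The counts of members called moved with the setting in the genotype comparisons and the interaction, and stayed at 28 to 31 in the pair labelled KO and 25 to 31 in the WT pair for the apoptotic cell contrast. KO against WT gave 3 called members. It gave 1 with the length and GC correction, 9 with the spread of all 12 libraries, and 1 for coding genes with the correction. When 1 library was left out it gave 1 to 13, with 13 without KO library 3 and 1 without KO library 1, KO library 2, WT library 2 or WT library 3. Over all genes tested, this comparison called 911 of 12640 with the correction and 3999 of 16810 with the spread of all 12 libraries. For coding genes with the correction it called 907 of 11505, and 312 to 4166 genes when 1 library was left out, with 4166 without KO library 3. Without KO libraries 1 and 2 it gave 0 by edgeR (2 at an unadjusted p under 0.05), and 0 with the correction too (3 at an unadjusted p under 0.05). The libraries labelled KO + AC against WT + AC gave 5. They gave 2 with DESeq2, 3 with no filter on low counts, 12 with the length and GC correction, 13 for coding genes with the correction, 0 with the spread of all 12 libraries (0 at an unadjusted p under 0.05), and 1 to 8 when 1 library was left out: 8 without KO + AC library 3, 3 without WT + AC library 1, 2 without WT + AC library 3, and 1 without KO + AC library 1, KO + AC library 2 or WT + AC library 2. Over all genes tested, 1239 of 16467 were called with DESeq2, 1630 of 42483 with no filter and 2402 of 16467 with the correction. For coding genes with the correction 2565 of 12919 were called, and with the spread of all 12 libraries 157 of 16810. Leaving out 1 library gave 1192 to 2142 genes. The interaction gave 4, 2 to 9 when 1 library was left out (9 without KO library 3, and 2 without KO library 1, KO library 2 or KO + AC library 2), and 1 without KO libraries 1 and 2. Over all genes tested, the interaction called 1129 to 4330 when 1 library was left out, with 4330 without KO library 3. Calls thus moved with the setting over all genes too. The causes were not tested.

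Replicate numbers did not pair the libraries: same-numbered libraries had correlations of -0.080 to 0.044 across genes, and not every library correlated best with its own number. With the replicate block, 4 members were called without apoptotic cells, 2 with them, 28 and 27 across the condition and 4 in the interaction. In the same order, the calls over all genes tested were 2496 of 12640, 1649 of 16467, 14453 and 14246 of 16810, and 2174 of 16810.

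Some members turned direction in the apoptotic cell contrast. With the length and GC correction in the pair labelled KO, the values were -0.88 for Atg16l1, -0.34 for Dock2, -0.19 for Elmo1, -0.65 for Ptk2, -0.54 for Rubcn and -0.71 for Wipi2. For coding genes with the correction they were -0.79 for Atg16l1, -0.37 for Dock2, -0.16 for Elmo1, -0.62 for Ptk2, -0.68 for Rubcn, -0.13 for Ulk1 and -0.86 for Wipi2, and Rubcn was at -0.30 without KO libraries 1 and 2. In the WT pair, the correction gave -0.70 for Atg16l1, -0.33 for Dock1, -0.50 for Dock2, -0.58 for Elmo1, -0.73 for Ptk2, -0.57 for Rubcn, -0.24 for Ulk1, -0.31 for Vav3 and -0.63 for Wipi2. For coding genes with the correction the WT pair gave -0.60 for Atg16l1, -0.074 for Dnm2, -0.31 for Dock1, -0.54 for Dock2, -0.54 for Elmo1, -0.69 for Ptk2, -0.72 for Rubcn, -0.52 for Ulk1, -0.017 for Vav3 and -0.80 for Wipi2. The median of all genes was 0.320 and 0.249 in the 2 pairs, 0.410 and 0.358 with DESeq2 size factors, and -0.206 and -0.263 with the correction.

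At 9 to 69 counts a library, Gulp1 is the member that depth limits most.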
